A study of Mus musculus with 34 samples.

Results

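Macrophages of MC38 and LLC tumors were each compared with the monocytes sorted from the same kind of tumor, and the size and sign of the 2 changes were compared gene by gene. The question was which genes differ between macrophages and monocytes to an unequal extent in the 2 tumors. The libraries were chosen by their labels alone: 16 of the 34 libraries of the series, 4 in each of 4 groups, from tumors carried by C57/Bl6 mice. TuMon1 monocytes were sorted from MC38 tumors as Ly6C+ CD88+ Sca1+ cells, and TuMon2 monocytes from LLC tumors as Ly6C+ CD88+ Sca1- cells. The macrophages of each tumor are labelled only as macrophages, with no gate given in the sources used here. MC38 is a mouse colon adenocarcinoma line and LLC the Lewis lung carcinoma line. Age and sex of the mice are not given, and no group carried a further treatment. Each monocyte subset was sampled in 1 tumor line, so monocyte subset and tumor line cannot be told apart. Both populations were sorted from tumors as they stood, so each change is a difference between 2 populations and not a time course of the same cells. The labels do not say whether replicates were separate animals, so the p-values measure only the spread between these samples.

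Blood monocytes that enter a tumor can become macrophages: they lose surface Ly6C and the chemokine receptor CCR2 and gain complement C1q, the F4/80 antigen and scavenging receptors. Major histocompatibility complex (MHC) class II molecules, which present peptides to CD4 T cells, are switched on in this course by the coactivator CIITA. Interferons turn on a further set of antiviral and chemokine genes in the same cells through STAT and IRF factors.

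Library totals lay between 13198795 and 24600946 estimated counts, with 13816 to 15583 genes detected, and the biological coefficient of variation was 0.122. Marker genes of both cell types followed the labels in part. All 6 monocyte markers, among them Ly6c2, Ccr2, Plac8, Hp and Vcan, fell from monocytes to macrophages in both tumors. Of 9 macrophage markers, 6 rose in MC38 and 7 in LLC, while 2, among them Fcgr1, fell in both. Ly6c2, which encodes the sorted Ly6C antigen, changed by -5.36 ± 0.27 on the log2 scale in MC38 and by -5.71 ± 0.28 in LLC, and these changes were not called different (0.35 ± 0.33, edgeR adjusted p = 0.510). Ly6a encodes Sca1, the antigen in which the 2 monocyte gates differed. Its libraries held 37.4, 28.4, 36.3 and 38.04 CPM in LLC TuMon2 monocytes and 126, 83.3, 154 and 176 CPM in LLC macrophages. Ly6a in MC38 tumors was at 1637, 1631, 1661 and 1735 CPM in TuMon1 monocytes and 859, 842, 844 and 602 CPM in macrophages. The macrophages were not stated to be sorted by Sca1, and Ly6a fell in MC38 and rose in LLC (-3.03 ± 0.26, edgeR adjusted p = 1.38e-06 for the difference). The gate set the monocyte end of that difference.

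Each change was the macrophage minus the monocyte level, as a log2 fold change fitted to the counts of all 16 libraries by edgeR's quasi-likelihood test. The difference of changes was the MC38 change minus the LLC change, given as log2 ± SE. A positive difference means a larger rise or a smaller fall in MC38. Over 12534 genes tested, 21.1% (2649 genes) had a difference of changes past an adjusted p of 0.05 (Benjamini-Hochberg over all genes tested, 2-sided). Of these, 1125 (8.98%) were higher in the MC38 change and 1524 (12.2%) lower, and 690 genes (5.51%) differed by more than 2-fold. The 2 changes themselves were called for 7423 genes in MC38 (59.2%; 28.1% higher and 31.1% lower) and 7819 genes in LLC (62.4%; 32.8% higher and 29.6% lower). The share of higher among called genes was 42.5% here, 50.1% with RLE scaling, 32.8% with upper quartile scaling and 51.6% with DESeq2. It was 41.5% to 42.4% when 1 monocyte library was left out and 55.1% to 57.6% when 1 macrophage library was left out. Without LLC macrophage replicate 2, 1701 genes were higher. The counts of higher and lower genes are therefore read here by gene group and not as a surplus of either direction.

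Across genes, which are not independent replicates, the MC38 and LLC changes had a Pearson r of 0.737 and a Spearman rho of 0.736, with no library shared between them. Both changes were called with the same sign in 5494 genes, and in 4458 of these the difference was not called. A change of sign was counted only where both changes passed their own tests, so the counts below do not weigh size against sign. Among the 2649 genes with unequal changes, 226 rose in both tumors but more in LLC, 140 rose in both but more in MC38, 364 fell in both but more in LLC, and 306 fell in both but more in MC38. Another 432 rose in LLC with no call in MC38, 235 rose in MC38 with no call in LLC, 282 fell in LLC only by the test and 360 fell in MC38 only by the test. Changes of opposite sign, each past its own test, were found in 280 genes (2.23%). Of these 93 (0.742%) rose in MC38 and fell in LLC, and 187 (1.49%) fell in MC38 and rose in LLC. The remaining 24 genes had neither change called. The same difference of changes is also the distance between the tumors among macrophages minus that among monocytes. In these terms the tumors lay closer together among macrophages for 1315 of the genes and farther apart for 1334.

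**Figure D1:**
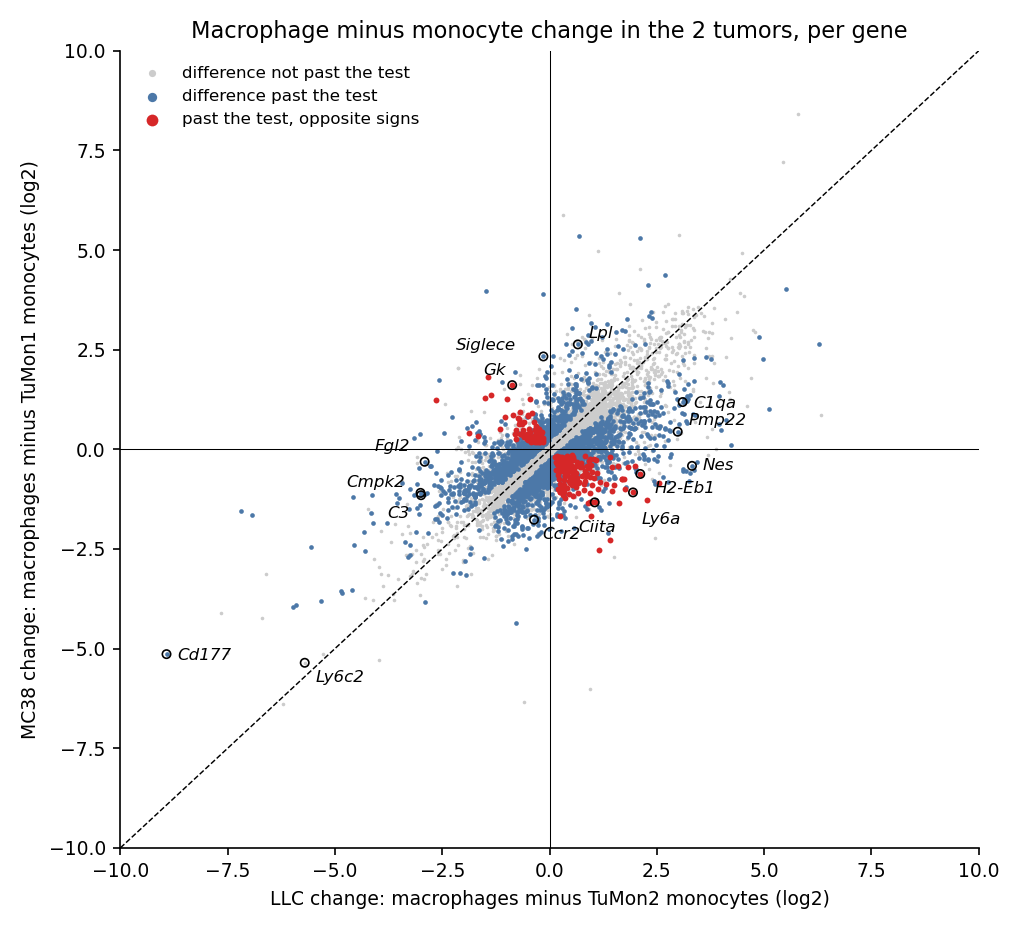
Each point is 1 of the 12534 genes tested, with the LLC change (macrophages minus TuMon2 monocytes, log2) on the x axis and the MC38 change (macrophages minus TuMon1 monocytes, log2) on the y axis; the dashed line marks equal changes. Blue genes have an unequal change by edgeR at an adjusted p of 0.05 and red genes, 280 in number, also have opposite signs; H2-Eb1 and Ciita lie to the lower right and Gk to the upper left.

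The MHC class II genes were the group with the largest median difference among the lists examined. Of 13 members, 9 rose from monocytes to macrophages in LLC tumors and 9 fell in MC38 tumors (32.8% and 31.1% over all genes). Among macrophages, 1 member was higher and 2 were lower in MC38 than in LLC (26.6% and 26.0% over all genes). All 13 were higher in MC38 among monocytes (30.9% over all genes). The β chain gene H2-Eb1 (Entrez Gene 14969; chromosome 17, 34305867 to 34316674) stood at 359, 343, 381 and 309.8 CPM in LLC TuMon2 monocytes and 1307, 1018, 1716 and 1986 CPM in LLC macrophages. H2-Eb1 in MC38 tumors was at 2113, 1812, 2509.8 and 2626 CPM in TuMon1 monocytes and 1575, 1139, 1741 and 1444 CPM in macrophages. In each tumor the monocyte and macrophage libraries did not overlap. LLC monocytes were the low group. The macrophages of both tumors overlapped, and the highest LLC macrophage library (replicate 4) also exceeded the lowest MC38 monocyte library (replicate 2). H2-Eb1 changed by -0.62 ± 0.19 in MC38 and 2.11 ± 0.20 in LLC, a difference of -2.73 ± 0.27, edgeR adjusted p = 6.31e-06. MC38 minus LLC was 2.7 ± 0.20 among monocytes and -0.03 ± 0.19 among macrophages, where the edgeR adjusted p was 0.905.

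The RNA levels of H2-Aa, H2-Ab1 and Cd74 followed the same course. H2-Aa, the α chain of I-A, rose in LLC from 517 ± 46.7 to 1660.0 ± 394 CPM and fell in MC38 from 2808 ± 449 to 1677 ± 268 CPM. H2-Ab1, its β chain partner, rose in LLC from 552 ± 40.3 to 1847 ± 498 CPM and fell in MC38 from 2956 ± 470.3 to 1768 ± 296 CPM. Cd74, the invariant chain that escorts class II dimers and blocks their groove, rose in LLC from 2019 ± 98.7 to 4590.3 ± 1109.6 CPM and fell in MC38 from 6701 ± 859 to 3808 ± 555 CPM. The differences of changes were -2.43 ± 0.24, edgeR adjusted p = 3.24e-06 for H2-Aa, -2.48 ± 0.25, edgeR adjusted p = 7.51e-06 for H2-Ab1 and -2.0 ± 0.21, edgeR adjusted p = 5.44e-06 for Cd74. In all 3 the monocyte and macrophage libraries of each tumor were apart and the macrophage libraries of the tumors overlapped. H2-Ab1, H2-Aa and H2-Eb1 are neighbours on chromosome 17, 13325 and 18043 bases apart on GRCm38, and Cd74 lies on chromosome 18. Within LLC macrophages the same library was lowest for all 4 genes (replicate 2) and the same library highest (replicate 4).

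Ciita (Entrez Gene 12265; chromosome 16, 10480014 to 10531064), the coactivator that class II promoters need, also changed in opposite directions. Its libraries held 45.8, 39.04, 40.8 and 38.9 CPM in LLC TuMon2 monocytes and 77.1, 75.2, 85.3 and 103 CPM in LLC macrophages. Ciita in MC38 tumors was at 106, 89.3, 149 and 111 CPM in TuMon1 monocytes and 38.997, 40.8, 53.2 and 48.5 CPM in macrophages. LLC monocytes and MC38 macrophages were the low groups, LLC macrophages and MC38 monocytes the high ones, with no overlap between monocytes and macrophages of either tumor. The difference was -2.38 ± 0.20, edgeR adjusted p = 2.78e-07. Unlike H2-Eb1, Ciita was also lower in MC38 than in LLC macrophages (MC38 minus LLC -0.91 ± 0.14, edgeR adjusted p = 3.24e-05), so that the order of the tumors turned from monocytes to macrophages.

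The accessory class II genes differed less or at low levels. H2-Ob (Entrez Gene 15002; chromosome 17, 34238905 to 34245908), the β chain of DO, which restrains peptide exchange by DM, was at 1.18, 1.15, 1.67 and 1.92 CPM in LLC TuMon2 monocytes and 7.45, 10.1, 9.63 and 10.6 CPM in LLC macrophages. H2-Ob in MC38 tumors was at 2.795, 3.25, 2.999 and 2.66 CPM in TuMon1 monocytes and 2.67, 2.87, 4.36 and 2.58 CPM in macrophages. It rose in LLC alone by the test, with a difference of -2.58 ± 0.28, edgeR adjusted p = 1.11e-06, and its MC38 groups overlapped. H2-DMb1, a chain of the peptide exchange factor DM, changed by -0.61 ± 0.13 in MC38 and 0.87 ± 0.13 in LLC. H2-DMa, its partner chain, changed by -0.55 ± 0.12 in MC38 and 0.04 ± 0.12 in LLC, and only the MC38 change was called. Ifi30, a thiol reductase of the antigen route, had a difference of -0.48 ± 0.12, edgeR adjusted p = 0.00683, and Ctss, the protease that trims the invariant chain, one of -0.30 ± 0.08, edgeR adjusted p = 0.00771. The Ctss call ended when any 1 of 5 macrophage libraries was left out or no filter on low counts was used (edgeR adjusted p = 0.0522 to 0.0750). H2-Eb2, at means of 0.0547 CPM in LLC monocytes and at most 1.03 CPM in the other groups, passed the test at counts too low for a fold. H2-Oa and H2-DMb2 were not called (edgeR adjusted p = 0.115 and 0.126).

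Of the 13 class II list members, all tested, 11 had a lower difference of changes and 0 a higher one, against 12.2% lower and 8.98% higher over all genes. The median difference was -2.0 beside -0.05 for all genes tested. In MC38 9 fell and 0 rose (31.1% and 28.1% over all genes). In LLC 9 rose and 0 fell (32.8% and 29.6%), and 6 did both. The median distance of MC38 above LLC was 1.47 among monocytes and 0.01 among macrophages. The alternatives gave 9 to 12 lower and 0 higher. Near-identical H2 genes may share reads that estimated counts divide between them, so single H2 values are uncertain.

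Upstream of their start sites some of these genes carry the paired boxes that class II regulators bind, which is why a few windows are shown. The windows are RefSeq sequences of GRCm38.p6, 5′ to 3′ along the gene, before the start site, with capitals for the X box letters CTNGNAAC followed within 30 bases by the Y box letters TGATTGG. These letters were chosen after windows had been seen. They lie at chr17:34305765-34305820 (+ strand), chr17:34287859-34287915 (- strand) and chr17:34238807-34238860 (+ strand).
H2-Eb1: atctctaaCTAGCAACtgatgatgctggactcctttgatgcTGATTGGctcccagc
H2-Aa: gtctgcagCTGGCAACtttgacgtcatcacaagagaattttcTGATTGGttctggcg
H2-Ob: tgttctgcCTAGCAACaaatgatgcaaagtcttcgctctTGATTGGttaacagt
The X letters begin 94, 84 and 90 bases before the start site, and 25, 26 and 23 bases separate them from the Y letters. On the gene strand, this pair was found in 24 of 32851 RefSeq promoter windows of 250 bases (0.0731%) and in 4 of the 10 class II list genes with a window, H2-DMb1 being the fourth. The pair is a description of letters and not a measured site. The 3 genes printed share it but not the same course: H2-Eb1 and H2-Aa fell in MC38, and H2-Ob was not called there.

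Class II genes are also high in dendritic cells and B cells, and some markers of these cells moved with them. Of 16 dendritic cell list members tested, 7 had a lower difference of changes and 1 a higher one (12.2% lower and 8.98% higher over all genes). The summed level of the list was 526.1 to 562.5 CPM in LLC monocytes, 434.1 to 471.6 in LLC macrophages, 801.9 to 856.2 in MC38 monocytes and 602.4 to 725.1 in MC38 macrophages, led by Bst2, an interferon gene too. Ccr7, the receptor of migrating dendritic cells, had group means of 0.975 and 4.09 CPM in LLC monocytes and macrophages, and 7.56 and 5.402 in MC38. The defining factor Zbtb46 had means of 0.071, 0.384, 0.421 and 0.489 CPM in the same order, and its difference was not called (edgeR adjusted p = 0.0555). Flt3, the receptor that maintains dendritic cells, stood at 1.71, 1.88, 1.57 and 0.720 CPM. None of the defining dendritic cell markers was at 0 in every library, and Siglech, a plasmacytoid marker, was at 0 in the LLC groups. Xcr1, of cross-presenting dendritic cells, went the other way, to 7.298 CPM in MC38 macrophages from 2.05 in MC38 monocytes. Of the B cell list, Cd79a had group means of at most 0.159 CPM and Blk was at 0 in every library. Cd79b of the same list had means of 3.55 and 3.63 CPM in LLC and 6.69 and 28.5 CPM in MC38, with a difference opposite to that of class II (2.04 ± 0.24, edgeR adjusted p = 1.9e-06). Fcrla, at means of 0.611 and 1.45 CPM in LLC and 1.93 and 0.960 CPM in MC38, had a lower difference (edgeR adjusted p = 0.00477). The whole list summed to 3.4 to 5.5 CPM in LLC monocytes, 3.7 to 6.9 in LLC macrophages, 8.1 to 10.1 in MC38 monocytes and 28.8 to 31.2 in MC38 macrophages. The part of such cells in the class II result was not tested. In bulk samples, fewer cells of a type and less RNA per cell cannot be told apart.

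**Figure D2:**
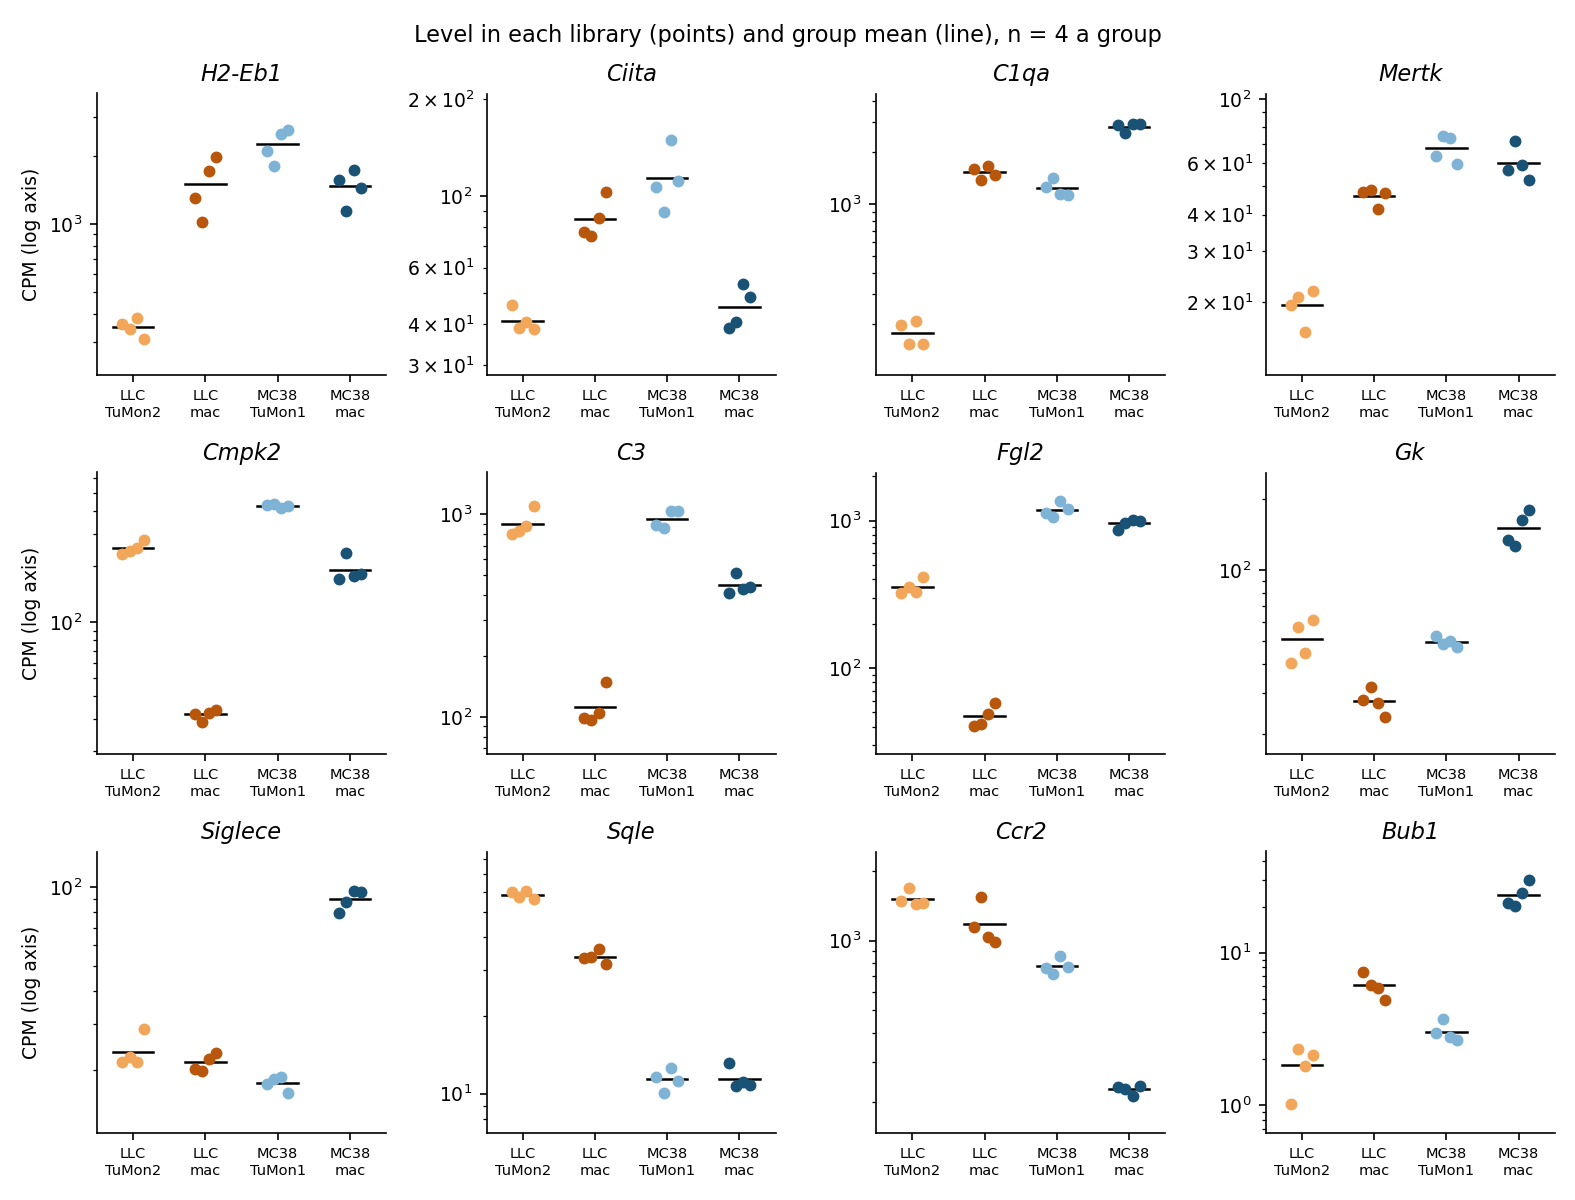
Levels in CPM (log axis) of 12 genes in each of the 16 libraries, as points by group, with the group mean as a line (n = 4). H2-Eb1 is lowest in LLC TuMon2 monocytes (at most 381 CPM) and its macrophage groups overlap, while Cmpk2, C3 and Fgl2 are lowest in LLC macrophages and Gk, Siglece and Bub1 highest in MC38 macrophages.

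Type I interferon response genes fell from monocytes to macrophages in both tumors, and fell further in LLC. Cmpk2 (Entrez Gene 22169; chromosome 12, 26469117 to 26479837), a mitochondrial nucleotide kinase induced by interferon, held 235, 243, 251 and 279.6 CPM in LLC TuMon2 monocytes and 31.8, 28.9, 32.4 and 33.6 CPM in LLC macrophages. Cmpk2 in MC38 tumors was at 431, 433, 413 and 426 CPM in TuMon1 monocytes and 171, 235, 177 and 183 CPM in macrophages. LLC macrophages were lowest and MC38 monocytes highest, and the 2 groups between them, LLC monocytes and MC38 macrophages, overlapped. Cmpk2 changed by -1.15 ± 0.09 in MC38 and -2.99 ± 0.09 in LLC, a difference of 1.84 ± 0.12, edgeR adjusted p = 1.39e-09. Rsad2 (Entrez Gene 58185; chromosome 12, 26442743 to 26456452), which encodes the antiviral enzyme viperin and lies 12664 bases from Cmpk2, held 993, 881, 998 and 1082 CPM in LLC TuMon2 monocytes and 119, 108, 115 and 142 CPM in LLC macrophages. Rsad2 in MC38 tumors was at 1796, 1677, 1643 and 1925 CPM in TuMon1 monocytes and 541, 617, 575 and 537 CPM in macrophages. None of its groups overlapped, and LLC macrophages were again lowest, with a difference of 1.4 ± 0.12, edgeR adjusted p = 3.3e-08.

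Other antiviral genes behaved alike. Ifit3, an inhibitor of viral RNA use, fell in LLC from 479.8 ± 20.5 to 94.2 ± 9.02 CPM and in MC38 from 1432 ± 109 to 710.4 ± 100.1 CPM, a difference of 1.34 ± 0.13, edgeR adjusted p = 1.28e-07. Ifi204, a DNA sensor, had a difference of 1.1 ± 0.09, edgeR adjusted p = 1.53e-08 and Ifit2 one of 0.92 ± 0.10, edgeR adjusted p = 5.79e-07. The Ifit2 call ended when the 8 spleen monocyte libraries shared the fit (difference 0.915, edgeR adjusted p = 0.0587, the highest over the alternatives, with 1.38e-21 the lowest). Members without a call included the transcription factors Irf7 (0.28 ± 0.10, edgeR adjusted p = 0.0602) and Irf9 (0.22 ± 0.10, edgeR adjusted p = 0.114), and Ifitm3, whose changes were -1.1 ± 0.12 and -1.11 ± 0.12.

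Of 42 type I interferon list members tested of 43, 32 had a higher difference of changes and 0 a lower one, against 8.98% and 12.2% over all genes, with a median of 0.65. All 32 fell in both tumors and more in LLC. In MC38 41 members fell (31.1% over all genes), in LLC 42 (29.6%), and none rose. MC38 exceeded LLC for all 42 members tested in monocytes and in macrophages alike, with a median distance of 1.12 in monocytes and 1.83 in macrophages. Over all genes the distance was called for 55.9% among monocytes (30.9% higher and 24.9% lower in MC38) and for 52.6% among macrophages (26.6% higher and 26.0% lower). The alternatives gave 26 to 36 members higher and 0 lower.

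The interferon gamma linked list shared part of this course. Of 26 members, 12 had a higher and 3 a lower difference (8.98% higher and 12.2% lower over all genes), with a median of 0.62. The alternatives gave 7 to 17 higher and 1 to 4 lower. Cxcl10 (Entrez Gene 15945; chromosome 5, 92346638 to 92348889), a chemokine that draws T cells, held 696, 569, 699 and 699 CPM in LLC TuMon2 monocytes and 131, 88.01, 145 and 172 CPM in LLC macrophages. Cxcl10 in MC38 tumors was at 1465, 1489, 1335 and 1659 CPM in TuMon1 monocytes and 788, 826, 765 and 752 CPM in macrophages. LLC macrophages were lowest and no groups overlapped, and the difference was 1.39 ± 0.20, edgeR adjusted p = 8.14e-05. With the spleen libraries in the fit, the Cxcl10 call ended (difference 1.387, edgeR adjusted p = 0.152, the highest over the alternatives, with 7.93e-12 the lowest). Gbp5, a guanylate binding protein, had a difference of 1.08 ± 0.16, edgeR adjusted p = 6.8e-05, and the GTPases Irgm1 and Irgm2 had 0.62 ± 0.11, edgeR adjusted p = 0.000262 and 0.69 ± 0.11, edgeR adjusted p = 8.76e-05. Nos2, the inducible nitric oxide synthase, fell in LLC from 38.2 ± 14.05 to 3.26 ± 1.63 CPM and in MC38 from 140.1 ± 25.6 to 55.2 ± 6.68 CPM (2.21 ± 0.43, edgeR adjusted p = 0.00253 for the difference). The receptor chain Ifngr1 lay on the other side, with a fall called in MC38 only and a difference of -0.61 ± 0.11, edgeR adjusted p = 0.000469. Cxcl9, Irf1 and Socs1 were not called (edgeR adjusted p = 0.275, 0.594 and 0.111).

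Interferon promoters were searched for 2 copies of GAAA with any 2 bases (NN) between them, the core of the element bound by STAT and IRF complexes, on both strands. They were in 978 of 32851 windows (2.98%) and in 13 of the 31 type I list genes with a window. A window each is shown for Rsad2, at chr12:26456553-26456582 (- strand), and Cxcl10, at chr5:92349083-92349112 (- strand), 5′ to 3′ along the gene, with the match in capitals. In Rsad2 the match begins 120 bases before the start site and is on the opposite strand, so the capitals show its complement read backwards. In Cxcl10 it begins 213 bases before the start.
Rsad2: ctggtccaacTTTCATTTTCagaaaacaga
Cxcl10: tcacgctttgGAAAGTGAAActtacctcac
Both genes fell further in LLC. Cmpk2, with the smallest adjusted p of the type I list, is not among the 13 genes with the letters in a window. Only 31 of the 43 listed genes had a window, and whether Cmpk2 was among them is not given here. Cxcl10 belongs to the interferon gamma linked list and is not counted in these 31.

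MHC class I presentation genes, which interferon also raises, were split. Of 21, 5 had a higher and 4 a lower difference (8.98% higher and 12.2% lower over all genes), with a median of 0.16. The alternatives gave 4 to 8 higher and 2 to 4 lower. The class I activator Nlrc5 fell in both tumors and more in LLC (0.48 ± 0.12, edgeR adjusted p = 0.00858). The heavy chain genes H2-Q4 (-0.57 ± 0.09, edgeR adjusted p = 8.34e-05) and H2-Q7 (-1.3 ± 0.23, edgeR adjusted p = 0.000661) had lower differences, and the chaperone Canx a higher one (0.39 ± 0.09, edgeR adjusted p = 0.00338). Genes for costimulation and checkpoint ligands were split too, with 6 higher and 4 lower of 20 tested (8.98% and 12.2% over all genes). Their median was -0.04, and the alternatives gave 4 to 9 higher and 3 to 5 lower. Il15, a growth factor for T and NK cells, fell more in LLC (1.23 ± 0.17, edgeR adjusted p = 1.44e-05), as did the death ligand Tnfsf10 (0.96 ± 0.13, edgeR adjusted p = 2.04e-05) and the checkpoint ligand Cd274 (0.68 ± 0.22, edgeR adjusted p = 0.0367). The poliovirus receptor Pvr fell more in MC38 (-0.60 ± 0.10, edgeR adjusted p = 9.42e-05).

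**Figure D3:**
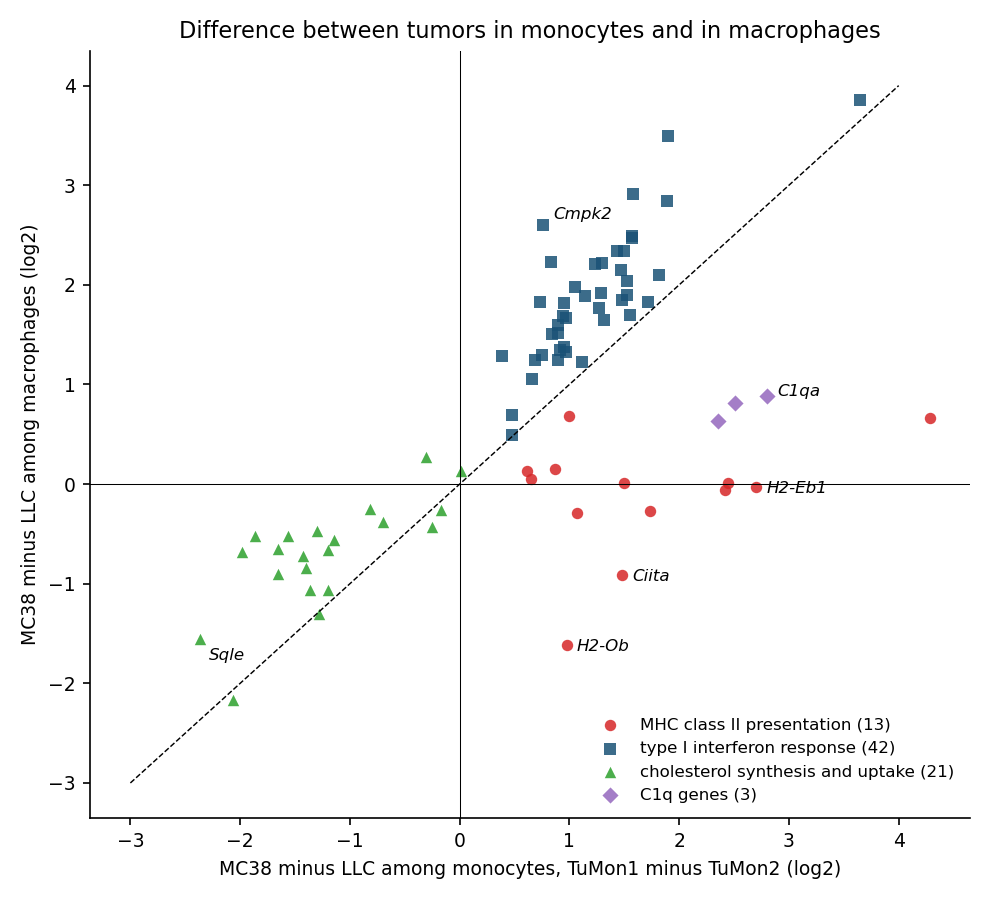
For members of 4 gene groups, the distance of MC38 from LLC among monocytes (TuMon1 minus TuMon2, log2, x axis) is set against that among macrophages (log2, y axis); the dashed line marks equal distances. The class II members with a called difference (11 of 13 tested) lie below the line, with H2-Ob and Ciita among those also below 0 on the y axis. The type I interferon members with a called difference (32 of 42 tested) lie above the line and the C1q genes below it. Members at 0 counts in a whole group are left out.

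Complement genes moved in different directions. C1qa (Entrez Gene 12259; chromosome 4, 136895916 to 136898844), a chain of the C1q trigger of the classical pathway that macrophages secrete, held 199, 154, 208 and 154 CPM in LLC TuMon2 monocytes and 1605, 1379, 1665 and 1478 CPM in LLC macrophages. C1qa in MC38 tumors was at 1263, 1416, 1153 and 1136 CPM in TuMon1 monocytes and 2870.5, 2599, 2907 and 2919.7 CPM in macrophages. Every macrophage library lay above every monocyte library of its tumor, and LLC monocytes were far below the other groups. It rose by 3.1 ± 0.10 in LLC and 1.18 ± 0.10 in MC38, a difference of -1.92 ± 0.14, edgeR adjusted p = 4.18e-09. C1qb and C1qc, the genes beside it on chromosome 4, had differences of -1.72 ± 0.11, edgeR adjusted p = 1.28e-09 and -1.69 ± 0.11, edgeR adjusted p = 1.63e-09. MC38 exceeded LLC by 2.8 ± 0.10 for C1qa among monocytes and by 0.88 ± 0.10 among macrophages. With the 8 spleen libraries in the fit the sizes kept their sign and the calls ended, with an edgeR adjusted p of 0.160 for C1qa, 0.0917 for C1qb and 0.101 for C1qc, each the highest over its alternatives. The lowest were 8.95e-36, 4.49e-42 and 6.31e-41.

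C3 (Entrez Gene 12266; chromosome 17, 57203967 to 57228136), the central component that all complement routes cleave, fell in both tumors. It held 802, 828, 876 and 1098 CPM in LLC TuMon2 monocytes and 99.2, 96.6, 104 and 149 CPM in LLC macrophages. C3 in MC38 tumors was at 885, 853, 1037 and 1039 CPM in TuMon1 monocytes and 408, 511, 429 and 438 CPM in macrophages. The monocytes of the tumors overlapped, and LLC macrophages lay below MC38 macrophages without overlap. The difference was 1.91 ± 0.18, edgeR adjusted p = 7.43e-07. Properdin, encoded by Cfp, which stabilises the alternative pathway convertase, rose in MC38 and fell in LLC (0.79 ± 0.11, edgeR adjusted p = 2.87e-05). Of 17 complement members tested of 18, 3 had a higher and 5 a lower difference (8.98% higher and 12.2% lower over all genes), with a median of -0.13. The alternatives gave 3 higher and 2 to 5 lower. Cfb, factor B, fell in both, by -0.85 ± 0.08 and -0.83 ± 0.08, and the difference was not called (-0.02 ± 0.11, edgeR adjusted p = 0.932).

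Mertk and Axl rose in LLC and were not called in MC38. Mertk (Entrez Gene 17289; chromosome 2, 128698915 to 128803162), a receptor kinase, held 19.5, 20.9, 15.8 and 21.9 CPM in LLC TuMon2 monocytes and 47.8, 48.6, 41.7 and 47.5 CPM in LLC macrophages. Mertk in MC38 tumors was at 63.9, 74.3, 73.2 and 59.6 CPM in TuMon1 monocytes and 57.1, 71.9, 59.3 and 52.6 CPM in macrophages. LLC monocytes stood alone at the bottom and the MC38 groups overlapped. The difference was -1.41 ± 0.15, edgeR adjusted p = 5.36e-07. Its call ended with the spleen libraries in the fit (difference -1.418, edgeR adjusted p = 0.0933, the highest over the alternatives, with 5.14e-16 the lowest). Its relative Axl behaved alike, with -0.20 ± 0.09 in MC38, 0.95 ± 0.09 in LLC and a difference of -1.15 ± 0.13, edgeR adjusted p = 1.13e-06. Folr2, a folate receptor of resident-type macrophages, rose in LLC from 13.9 ± 1.15 to 95.99 ± 10.9 CPM and in MC38 from 24.1 ± 5.84 to 38.8 ± 8.13 CPM, a difference of -2.11 ± 0.23, edgeR adjusted p = 4.43e-06. Pltp, a phospholipid transfer protein, rose in both and more in LLC (-1.49 ± 0.19, edgeR adjusted p = 2.2e-05). Cd163, a haemoglobin scavenger receptor, rose in MC38 alone by the test, from 0.983 ± 0.228 to 6.08 ± 3.33 CPM, and went from 5.28 ± 0.803 to 6.79 ± 2.46 CPM in LLC (2.27 ± 0.50, edgeR adjusted p = 0.00336).

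Of 29 macrophage identity genes tested of 31, 2 had a higher difference and 8 a lower one (8.98% higher and 12.2% lower over all genes), with a median of 0.00 on the log2 scale. The alternatives gave 1 to 3 higher and 5 to 10 lower. Cd81, a tetraspanin, rose by 3.43 ± 0.16 in MC38 and 3.09 ± 0.16 in LLC, and Cx3cr1, the fractalkine receptor, by 1.37 ± 0.16 and 1.21 ± 0.16, and neither difference was called. Adgre1, which encodes F4/80, rose by 0.80 ± 0.09 in MC38 and 0.64 ± 0.09 in LLC, a difference not called (0.16 ± 0.13, edgeR adjusted p = 0.418).

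Lipid handling genes of macrophages were split as well, with 5 higher and 7 lower of 28 (8.98% and 12.2% over all genes). Their median was -0.12, and the alternatives gave 2 to 7 higher and 4 to 8 lower. Lpl (Entrez Gene 16956; chromosome 8, 68880555 to 68906932), lipoprotein lipase, held 32.3, 24.5, 23.6 and 26.99 CPM in LLC TuMon2 monocytes and 39.2, 49.1, 37.2 and 43.3 CPM in LLC macrophages. Lpl in MC38 tumors was at 20.9, 25.2, 24.99 and 24.8 CPM in TuMon1 monocytes and 118, 129, 155 and 191 CPM in macrophages. The monocytes overlapped and MC38 macrophages were far above the rest, with a difference of 1.97 ± 0.19, edgeR adjusted p = 9.45e-07. The Lpl call ended with the spleen libraries in the fit (difference 1.973, edgeR adjusted p = 0.160, the highest over the alternatives, with 1.81e-22 the lowest). Ch25h, an oxysterol synthase, rose more in LLC (-1.88 ± 0.31, edgeR adjusted p = 0.000460), as did Trem2, a lipid receptor (-0.63 ± 0.15, edgeR adjusted p = 0.00551). Fat cell markers were uneven between libraries, with a sum of 100.3 CPM at most in MC38 macrophages (replicate 4) and 1.8 at the least. None of the 8 tested was called, and without that library 2684 genes had a called difference of changes. The part of fat RNA in the Lpl result was not tested. Lpl was lower in the other 3 MC38 macrophage libraries, at 118 to 155 CPM.

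Among the genes with a large difference toward MC38 was Fgl2 (Entrez Gene 14190; chromosome 5, 21372673 to 21378386), a fibrinogen-like protein that macrophages and T cells make. It held 325, 355, 329.8 and 413 CPM in LLC TuMon2 monocytes and 40.7, 41.9, 48.9 and 58.1 CPM in LLC macrophages. Fgl2 in MC38 tumors was at 1133, 1056, 1367 and 1194 CPM in TuMon1 monocytes and 865, 962, 1007 and 989 CPM in macrophages. All 4 groups were apart. Fgl2 fell slightly in MC38 (-0.31 ± 0.10) and steeply in LLC (-2.91 ± 0.11), a difference of 2.6 ± 0.15, edgeR adjusted p = 3.21e-10. Siglece (Entrez Gene 83382; chromosome 7, 43648882 to 43672044), an inhibitory receptor that binds sialic acids, held 21.5, 22.5, 21.5 and 28.7 CPM in LLC TuMon2 monocytes and 20.3, 19.9, 22.2 and 23.4 CPM in LLC macrophages. Siglece in MC38 tumors was at 17.7, 18.6, 18.8 and 16.4 CPM in TuMon1 monocytes and 79.9, 87.6, 96.2 and 95.9 CPM in macrophages. LLC monocytes and macrophages overlapped, and MC38 macrophages lay above every other library. The difference was 2.47 ± 0.13, edgeR adjusted p = 6.04e-11. Rnf144a, a ubiquitin ligase, had a difference of 2.56 ± 0.23, edgeR adjusted p = 5.74e-08. The macrophage lectin gene Clec4b1 also rose in MC38 only by the test, from 2.07 ± 0.496 to 17.1 ± 3.35 CPM (2.51 ± 0.33, edgeR adjusted p = 1.14e-05). Fpr1 and Fpr2, neighbouring genes on chromosome 17 for receptors of formylated peptides, fell in LLC from 21.8 ± 4.17 to 5.86 ± 1.47 CPM and from 79.7 ± 6.51 to 11.3 ± 2.91 CPM. In MC38 Fpr1 rose past the test from 19.5 ± 3.91 to 26.2 ± 2.899 CPM although the groups overlapped, and Fpr2 fell from 94.1 ± 6.51 to 70.5 ± 9.31 CPM. Their differences were 2.3 ± 0.24, edgeR adjusted p = 1.12e-06 and 2.38 ± 0.19, edgeR adjusted p = 4.29e-08.

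Among the genes with a large difference toward LLC was Nes (Entrez Gene 18008; chromosome 3, 87971093 to 87980451), which encodes the intermediate filament nestin. It held 1.18, 1.65, 1.67 and 2.53 CPM in LLC TuMon2 monocytes and 17.3, 19.01, 21.7 and 13.9 CPM in LLC macrophages. Nes in MC38 tumors was at 7.25, 7.85, 7.79 and 6.44 CPM in TuMon1 monocytes and 5.69, 7.37, 4.13 and 4.61 CPM in macrophages. LLC macrophages were highest and the MC38 groups overlapped, a difference of -3.73 ± 0.28, edgeR adjusted p = 4.57e-09. Pmp22 (Entrez Gene 18858; chromosome 11, 63128982 to 63159547), a membrane protein known from myelin, held 10.8, 6.83, 7.47 and 7.75 CPM in LLC TuMon2 monocytes and 69.5, 72.6, 61.6 and 53.3 CPM in LLC macrophages. Pmp22 in MC38 tumors was at 9.001, 10.4, 7.05 and 10.6 CPM in TuMon1 monocytes and 10.4, 13.7, 11.3 and 14.7 CPM in macrophages. Only the LLC macrophages stood apart, at 53.3 CPM or more, with a difference of -2.54 ± 0.21, edgeR adjusted p = 4.81e-08. With the spleen libraries in the fit, the difference of Pmp22 was -2.542 and its edgeR adjusted p 0.0549, the highest over the alternatives, with 2.39e-27 the lowest. Dbn1, which encodes the actin binding protein drebrin, rose in LLC from 4.59 ± 1.18 to 25.6 ± 2.68 CPM with no call in MC38 (-2.8 ± 0.25, edgeR adjusted p = 5.93e-08). Ltc4s, leukotriene C4 synthase, rose in LLC from 2.95 ± 0.576 to 29.3 ± 2.41 CPM and in MC38 from 1.101 ± 0.314 to 2.03 ± 0.589 CPM (-2.44 ± 0.29, edgeR adjusted p = 3.34e-06). Cdk18, Ctnnd2 and Htra3 had differences of -3.39 ± 0.38, -3.0 ± 0.39 and -2.56 ± 0.37, each with a rise in LLC. The Htra3 call ended with the spleen libraries in the fit (difference -2.558, edgeR adjusted p = 0.0584, the highest over the alternatives, with 2.32e-09 the lowest). Tlr12, a receptor for parasite profilin, was at 0 counts in 2 LLC monocyte libraries and passed the test, with group means of 0.0306 and 1.32 CPM in LLC and 6.97 and 14.2 CPM in MC38.

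Genes of opposite sign that rose in MC38 included Gk (Entrez Gene 14933; chromosome X, 85701937 to 85776819), glycerol kinase, which feeds glycerol into lipid synthesis. It held 40.1, 57.1, 44.2 and 61.2 CPM in LLC TuMon2 monocytes and 28.05, 31.8, 27.2 and 23.8 CPM in LLC macrophages. Gk in MC38 tumors was at 52.3, 48.2, 50.1 and 47.1 CPM in TuMon1 monocytes and 134, 126, 163 and 180.3 CPM in macrophages. The monocytes of the tumors overlapped, and the macrophages moved apart to both sides, with a difference of 2.48 ± 0.18, edgeR adjusted p = 3.3e-08. Klra17, a lectin-like receptor gene, held 1.18, 1.99, 1.67 and 1.21 CPM in LLC TuMon2 monocytes and 0.521, 0.484, 0.9501 and 0.494 CPM in LLC macrophages. Klra17 in MC38 tumors was at 5.73, 6.45, 6.89 and 8.24 CPM in TuMon1 monocytes and 13.1, 14.1, 20.5 and 22.7 CPM in macrophages. Near-identical Klra genes may share its reads. Its difference was 2.73 ± 0.36, edgeR adjusted p = 1.09e-05, with LLC macrophages at or below 1 CPM. Il10 (Entrez Gene 16153; chromosome 1, 131019845 to 131024970), the anti-inflammatory cytokine, held 5.92, 7.53, 8.27 and 8.46 CPM in LLC TuMon2 monocytes and 2.38, 2.42, 2.28 and 2.47 CPM in LLC macrophages. Il10 in MC38 tumors was at 20.9, 21.96, 21.2 and 21.5 CPM in TuMon1 monocytes and 25.9, 25.3, 27.6 and 29.9 CPM in macrophages. It rose slightly in MC38 and fell in LLC, with no overlap between any groups and a difference of 2.01 ± 0.15, edgeR adjusted p = 6.57e-09. Tspan3, a tetraspanin, Pycard, the adaptor of inflammasomes, and Cd200r1, an inhibitory receptor, rose in MC38 by 0.94 ± 0.09, 0.84 ± 0.11 and 0.62 ± 0.13 and fell in LLC (-0.70 ± 0.10, -0.51 ± 0.11 and -0.71 ± 0.13). The lipid receptor gene Gpr18, Ankrd28 and Sh3bp4 did likewise, with differences of 1.53 ± 0.25, 1.48 ± 0.19 and 1.28 ± 0.18.

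Genes of opposite sign that rose in LLC included, besides class II genes and Ly6a, Cbfa2t3 (Entrez Gene 12398; chromosome 8, 122625136 to 122699332), a transcriptional corepressor. It held 23.8, 25.2, 25.2 and 21.5 CPM in LLC TuMon2 monocytes and 42.2, 45.99, 41.04 and 55.8 CPM in LLC macrophages. Cbfa2t3 in MC38 tumors was at 19.99, 14.6, 20.3 and 19.8 CPM in TuMon1 monocytes and 6.95, 6.16, 9.06 and 8.01 CPM in macrophages. No groups overlapped, with LLC macrophages highest and MC38 macrophages lowest, and the difference was -2.26 ± 0.18, edgeR adjusted p = 1.25e-08. Tnfsf13 (Entrez Gene 69583; chromosome 11, 69682577 to 69685554), which encodes the B cell survival factor APRIL, held 43.9, 46.7, 45.5 and 48.8 CPM in LLC TuMon2 monocytes and 87.2, 82.5, 91.7 and 96.6 CPM in LLC macrophages. Tnfsf13 in MC38 tumors was at 56.9, 58.9, 42.1 and 62.2 CPM in TuMon1 monocytes and 32.2, 18.3, 24.5 and 27.9 CPM in macrophages. The monocytes of the tumors overlapped and the macrophages did not, with a difference of -2.05 ± 0.19, edgeR adjusted p = 4.44e-07. The sugar transporter gene Slc2a6, the receptor kinase gene Epha2, Dpep3 and C1qtnf6 had differences of -2.24 ± 0.18, -2.32 ± 0.23, -2.41 ± 0.23 and -1.89 ± 0.23. Each fell in MC38 and rose in LLC.

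Sterol synthesis genes fell in LLC, and fewer of them fell in MC38. Sqle (Entrez Gene 20775; chromosome 15, 59315092 to 59331193), squalene epoxidase, held 59.6, 57.2, 60.3 and 56.2 CPM in LLC TuMon2 monocytes and 33.3, 33.6, 36.04 and 31.5 CPM in LLC macrophages. Sqle in MC38 tumors was at 11.6, 10.1, 12.6 and 11.2 CPM in TuMon1 monocytes and 13.1, 10.7, 11.1 and 10.8 CPM in macrophages. LLC monocytes were highest, LLC macrophages next, and the MC38 groups lay below both and overlapped. Its change was -0.79 ± 0.08 in LLC and 0.01 ± 0.09 in MC38, a difference of 0.80 ± 0.12, edgeR adjusted p = 3.75e-05. Idi1 (Entrez Gene 319554; chromosome 13, 8885606 to 8892396), isopentenyl diphosphate isomerase, held 77.5, 78.2, 76.8 and 76.3 CPM in LLC TuMon2 monocytes and 38.3, 42.6, 41.2 and 32.3 CPM in LLC macrophages. Idi1 in MC38 tumors was at 25.7, 21.8, 30.9 and 25.8 CPM in TuMon1 monocytes and 27.5, 23.4, 25.5 and 31.2 CPM in macrophages. The difference was 1.05 ± 0.14, edgeR adjusted p = 1.7e-05, with the MC38 groups overlapping below the LLC ones. Stard4, a sterol carrier, and Hmgcs1, an early enzyme of the pathway, had differences of 1.3 ± 0.18 and 0.83 ± 0.12.

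Of 22 sterol members tested, 13 had a higher difference and 0 a lower one (8.98% higher and 12.2% lower over all genes), with a median of 0.56. In LLC 19 fell and 1 rose (29.6% and 32.8% over all genes), and in MC38 11 fell and 1 rose (31.1% and 28.1%). MC38 lay below LLC by a median of -1.29 among monocytes and -0.61 among macrophages. The alternatives gave 12 to 15 higher and 0 lower.

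Hypoxia and glycolysis genes fell in both tumors. Of 33 tested, 29 fell in MC38 and 29 in LLC (31.1% and 29.6% over all genes). Of these 33, 11 had a higher difference and 4 a lower one (8.98% higher and 12.2% lower over all genes), with a median of 0.21. The alternatives gave 6 to 16 higher and 4 lower. Pkm (Entrez Gene 18746; chromosome 9, 59656576 to 59679372), pyruvate kinase, held 4129.6, 4158, 4241 and 4584 CPM in LLC TuMon2 monocytes and 1829.9, 1866, 1911 and 2145 CPM in LLC macrophages. Pkm in MC38 tumors was at 2803, 2539.6, 2552 and 2751 CPM in TuMon1 monocytes and 1921, 1787, 1728 and 1641 CPM in macrophages. LLC monocytes were highest and the macrophages of both tumors overlapped, a difference of 0.55 ± 0.09, edgeR adjusted p = 0.000182. Slc2a3 (Entrez Gene 20527; chromosome 6, 122727809 to 122802363), a high-affinity glucose transporter, held 12.7, 18.8, 14.4 and 19.5 CPM in LLC TuMon2 monocytes and 3.69, 2.55, 3.42 and 2.16 CPM in LLC macrophages. Slc2a3 in MC38 tumors was at 3.51, 3.25, 2.95 and 4.26 CPM in TuMon1 monocytes and 4.698, 5.25, 4.24 and 4.26 CPM in macrophages. It was high in LLC monocytes alone, and the other groups lay at 2.16 to 5.25 CPM (2.86 ± 0.25, edgeR adjusted p = 4.79e-08). Slc16a3, the lactate exporter, fell more in MC38 (-0.65 ± 0.13, edgeR adjusted p = 0.00102), as did Ankrd37, a hypoxia target (-0.83 ± 0.18, edgeR adjusted p = 0.00171).

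**Figure D4:**
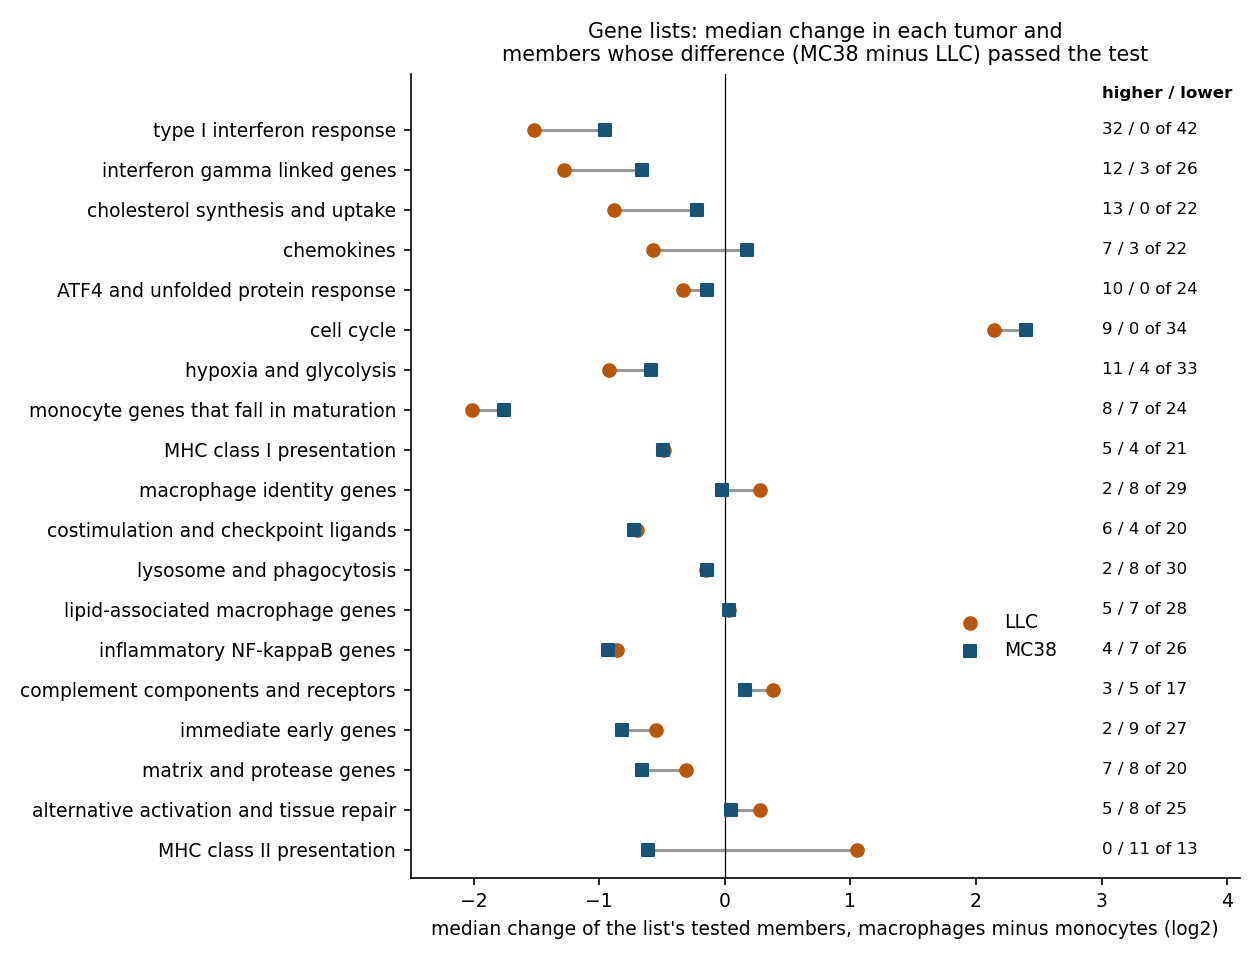
For 19 gene lists, the median change from monocytes to macrophages (log2, x axis) of the tested members is drawn for LLC (circles) and MC38 (squares), with the number of members whose difference was called higher and lower at the right. The class II list runs from 1.05 in LLC to -0.61 in MC38, while the cell cycle list is above 2 in both tumors.

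Genes of monocytes fell in both tumors, 21 of 24 in each (31.1% fell in MC38 and 29.6% in LLC over all genes). The falls were uneven in size, with 8 higher and 7 lower differences (8.98% and 12.2% over all genes) and a median of 0.16. The alternatives gave 7 to 10 higher and 6 to 9 lower. Ccr2 (Entrez Gene 12772; chromosome 9, 124101918 to 124109140), the receptor that brings monocytes out of the marrow, held 1486, 1683, 1436 and 1448 CPM in LLC TuMon2 monocytes and 1142, 1538, 1040.4 and 988 CPM in LLC macrophages. Ccr2 in MC38 tumors was at 761, 719.9, 857 and 768 CPM in TuMon1 monocytes and 234, 229, 213 and 236 CPM in macrophages. In LLC the groups overlapped although the fall passed the test (edgeR adjusted p = 0.00452). In MC38 the fall was larger, a difference of -1.41 ± 0.15, edgeR adjusted p = 7.53e-07. Padi4 (Entrez Gene 18602; chromosome 4, 140745508 to 140774239), a peptidylarginine deiminase, held 48.1, 52.5, 55.04 and 58.5 CPM in LLC TuMon2 monocytes and 58.03, 66.98, 52.4 and 63.9 CPM in LLC macrophages. Padi4 in MC38 tumors was at 17.1, 16.5, 17.9 and 19.4 CPM in TuMon1 monocytes and 4.89, 6.61, 3.95 and 6.49 CPM in macrophages. It fell in MC38 and was not called in LLC, where the groups overlapped (-1.84 ± 0.16, edgeR adjusted p = 5.92e-08). S100a4 and S100a6, calcium binding proteins of monocytes, also fell more in MC38 (-0.94 ± 0.16 and -0.99 ± 0.26). Gsr, glutathione reductase, fell more in LLC (2.01 ± 0.19, edgeR adjusted p = 4.68e-07).

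Cd177 (Entrez Gene 68891; chromosome 7, 24743983 to 24760334), a surface protein best known from neutrophils, had one of the largest positive differences. It held 84.2, 75.8, 82.8 and 105 CPM in LLC TuMon2 monocytes and 0.112, 0.0440, 0.380 and 0.247 CPM in LLC macrophages. Cd177 in MC38 tumors was at 19.1, 15.004, 17.6 and 27.5 CPM in TuMon1 monocytes and 0.458, 0.6802, 0.802 and 0.352 CPM in macrophages. It fell to under 1 CPM in both tumors and the macrophage groups overlapped, so the difference of 3.79 ± 0.57, edgeR adjusted p = 0.000117 rests on macrophage counts near 0. Neutrophil markers moved with it: 7 of 11 tested had a higher difference and 0 a lower one (8.98% higher and 12.2% lower over all genes), and 3 to 7 were higher over the alternatives. Their summed level was 380.0 to 477.5 CPM in LLC monocytes, 134.7 to 158.9 in LLC macrophages, 574.3 to 675.0 in MC38 monocytes and 246.7 to 281.1 in MC38 macrophages, led by Csf3r, the G-CSF receptor that monocytes also carry. The defining neutrophil gene Ly6g had means of 1.58, 0.241, 5.401 and 0.616 CPM in the same order, with no call (-0.25 ± 0.66, edgeR adjusted p = 0.838), and the granule genes Camp, Ngp and Ltf had means of at most 0.354 CPM in every group. The part of neutrophils in the Cd177 and Fpr results was not tested.

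Cell cycle genes rose in both tumors. All 34 rose in MC38 and 32 in LLC (28.1% and 32.8% over all genes). The rise was larger in MC38 for 9 members and in LLC for 0 (8.98% higher and 12.2% lower over all genes), and over the alternatives for 6 to 14 and 0 or 1. The medians were 2.40 in MC38, 2.14 in LLC and 0.32 for the difference. Bub1 (Entrez Gene 12235; chromosome 2, 127800197 to 127831859), a kinase of the spindle checkpoint, held 1.01, 2.34, 1.81 and 2.14 CPM in LLC TuMon2 monocytes and 7.49, 6.16, 5.83 and 4.88 CPM in LLC macrophages. Bub1 in MC38 tumors was at 2.98, 3.65, 2.79 and 2.66 CPM in TuMon1 monocytes and 21.2, 20.4, 24.5 and 29.9 CPM in macrophages. No groups overlapped between monocytes and macrophages, and MC38 macrophages were highest (1.29 ± 0.27, edgeR adjusted p = 0.00154). Cdk2 (Entrez Gene 12566; chromosome 10, 128697938 to 128705051), a kinase of DNA replication entry, held 29.2, 30.2, 29.7 and 26.9 CPM in LLC TuMon2 monocytes and 31.3, 26.4, 27.6 and 23.6 CPM in LLC macrophages. Cdk2 in MC38 tumors was at 21.03, 21.1, 21.5 and 19.1 CPM in TuMon1 monocytes and 34.8, 30.9, 36.9 and 33.7 CPM in macrophages. It rose in MC38 and was not called in LLC (0.81 ± 0.12, edgeR adjusted p = 5.21e-05). Cdc6, which loads the replication helicase, and Aurkb, a mitotic kinase, had differences of 1.18 ± 0.26 and 1.05 ± 0.25. Proliferation markers Mki67 and Top2a rose by 3.42 ± 0.16 and 2.57 ± 0.14 in MC38 and by 2.93 ± 0.16 and 2.59 ± 0.16 in LLC, differences that were not called.

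Inflammatory NF-kappaB genes fell in both tumors, 23 of 26 in each (31.1% fell in MC38 and 29.6% in LLC over all genes). They had 4 higher and 7 lower differences (8.98% higher and 12.2% lower over all genes) and a median of -0.13. The alternatives gave 1 to 5 higher and 4 to 9 lower. Ptgs2 (Entrez Gene 19225; chromosome 1, 150100031 to 150108234), the prostaglandin synthase COX-2, held 1552, 1957, 1690.4 and 1903 CPM in LLC TuMon2 monocytes and 182, 261, 173 and 218 CPM in LLC macrophages. Ptgs2 in MC38 tumors was at 1137, 987, 1262 and 1227 CPM in TuMon1 monocytes and 431, 423, 362 and 435 CPM in macrophages. LLC monocytes were highest and LLC macrophages lowest, with no overlap of groups and a difference of 1.61 ± 0.16, edgeR adjusted p = 7.03e-07. The Ptgs2 call ended with the spleen libraries in the fit (difference 1.605, edgeR adjusted p = 0.276, the highest over the alternatives, with 1.99e-21 the lowest). Il1b, interleukin 1β, and Nlrp3, its inflammasome sensor, fell more in MC38 (-0.73 ± 0.15 and -0.65 ± 0.11).

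Chemokines split by gene, with 7 higher and 3 lower of 22 (8.98% higher and 12.2% lower over all genes) and a median of 0.36. The alternatives gave 3 to 11 higher and 2 or 3 lower. Cxcl16 (Entrez Gene 66102; chromosome 11, 70454389 to 70459984), a membrane-bound chemokine for CXCR6, held 264, 226, 258 and 164 CPM in LLC TuMon2 monocytes and 683, 640.1, 695 and 663 CPM in LLC macrophages. Cxcl16 in MC38 tumors was at 1211, 1226, 1151 and 1201 CPM in TuMon1 monocytes and 1172, 1072, 1029 and 1065 CPM in macrophages. LLC monocytes were lowest, and the MC38 groups overlapped above all LLC libraries (-1.7 ± 0.14, edgeR adjusted p = 3.3e-08). Ccl3, a macrophage inflammatory chemokine, fell in LLC only by the test (0.96 ± 0.13, edgeR adjusted p = 2.22e-05). With the spleen libraries in the fit its difference was 0.957 (edgeR adjusted p = 0.116, the highest over the alternatives, with 6.53e-11 the lowest). Cxcl3, a chemokine for neutrophils, went from 186 ± 89.5 to 17.1 ± 8.59 CPM in LLC and from 10.4 ± 2.28 to 5.73 ± 1.08 CPM in MC38, and only the LLC fall was called. Ccl24, an eosinophil chemokine, had means of 62.7 and 10.9 CPM in LLC and 0.859 and 2.85 CPM in MC38 (4.3 ± 1.14, edgeR adjusted p = 0.0177). LLC replicate 4 held the highest value of both LLC groups for Ccl24, 137 CPM in monocytes and 27.8 CPM in macrophages, and the difference stayed called without any 1 library.

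Of 25 alternative activation genes 5 had a higher and 8 a lower difference (8.98% higher and 12.2% lower over all genes), with a median of -0.47. The alternatives gave 3 to 7 higher and 4 to 11 lower. Pdgfb, a growth factor for stromal cells, rose more in LLC (-1.91 ± 0.16, edgeR adjusted p = 5.3e-08). Retnla, an alternative activation marker, rose more in MC38 (1.82 ± 0.54, edgeR adjusted p = 0.0279). Of 20 matrix and protease genes 7 were higher and 8 lower (8.98% and 12.2% over all genes), with a median of -0.33. Over the alternatives these were 3 to 7 and 3 to 8. Timp2, an inhibitor of matrix proteases, rose more in LLC (-1.87 ± 0.15, edgeR adjusted p = 3.57e-08), and Ecm1, a matrix protein, fell more in MC38 (-1.29 ± 0.13, edgeR adjusted p = 3.92e-07). Of 27 immediate early genes 2 were higher and 9 lower (8.98% and 12.2% over all genes), with a median of -0.22. Over the alternatives these were 0 to 5 and 5 to 12. Klf2 (Entrez Gene 16598; chromosome 8, 72319062 to 72321654), a factor of quiescence, held 129, 110.3, 133 and 137 CPM in LLC TuMon2 monocytes and 349.9, 319, 319 and 409 CPM in LLC macrophages. Klf2 in MC38 tumors was at 83.5, 74.4, 89.7 and 97.9 CPM in TuMon1 monocytes and 91.97, 85.3, 92.9 and 113 CPM in macrophages. LLC macrophages stood alone at the top (-1.31 ± 0.14, edgeR adjusted p = 1.25e-06). Klf4, a factor of monocyte development, fell in MC38 and rose slightly in LLC (-1.3 ± 0.14, edgeR adjusted p = 1.53e-06). Of 24 genes of the ATF4 and unfolded protein responses 10 were higher and 0 lower (8.98% and 12.2% over all genes). Their median was 0.34, and the alternatives gave 8 to 12 higher and 0 or 1 lower. Higher ones included Slc7a11, the cystine importer (1.38 ± 0.21, edgeR adjusted p = 9.54e-05), and Herpud1, of protein degradation at the endoplasmic reticulum (0.61 ± 0.14, edgeR adjusted p = 0.00346). Of 30 lysosomal genes 2 were higher and 8 lower (8.98% and 12.2% over all genes). Their median was -0.11, with 1 to 5 higher and 2 to 9 lower over the alternatives. Lower ones included the protease gene Ctsk (-1.91 ± 0.53, edgeR adjusted p = 0.0202).

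Of T and NK cell genes 3 of 11 tested had a lower difference and 0 a higher one (12.2% lower and 8.98% higher over all genes). Their summed levels were 4.7 to 5.2 CPM in LLC monocytes, 5.4 to 8.3 in LLC macrophages, 14.5 to 16.6 in MC38 monocytes and 8.7 to 15.2 in MC38 macrophages. The T cell receptor chain genes Cd3e and Cd3g had means of at most 0.487 CPM in every group. Connective tissue and endothelial genes had 1 higher and 3 lower of 16 (8.98% and 12.2% over all genes). Their sums were 69.7 to 103.7 CPM in LLC and 238.1 to 361.8 in MC38. Kdr, an endothelial growth factor receptor, stood at 112 to 188 CPM in MC38 monocytes, 45.5 to 81.4 in MC38 macrophages and 4.37 to 6.95 in the LLC groups (-1.26 ± 0.29, edgeR adjusted p = 0.00556). Pecam1, an adhesion molecule of endothelium and of monocytes, had means of 33.01 and 16.9 CPM in LLC and 85.5 and 97.2 CPM in MC38 (1.17 ± 0.34, edgeR adjusted p = 0.0280). With the spleen libraries in the fit both calls ended, at differences of -1.257 for Kdr and 1.158 for Pecam1. The edgeR adjusted p was 0.265 for Kdr and 0.142 for Pecam1, the highest over the alternatives, with 2.73e-07 and 8.04e-07 the lowest. The Pecam1 call also ended without MC38 monocyte replicate 3 (edgeR adjusted p = 0.0511). The part of such cells in the results was not tested. Markers of eosinophils, basophils and mast cells (2 tested) and of red cells (1 tested) gave no call and summed to at most 4.3 CPM.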

How the data were processed

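RNA was extracted from sorted cells with TRIzol and libraries were made with a KAPA stranded mRNA-Seq kit, per the labels' protocols. The submitters' processing notes name CASAVA 1.8.2 and the GRCm38 and mm10 builds, with no aligner or counter given in the sources used here. The values are estimated counts (expected counts) per gene, not normalized, as deposited by the authors, and 14.6% of them were not whole. They were rounded, which moved no library total by more than 0.000368%. Counts had been assumed when the tests were chosen, and the same test was used. Of 24475 gene IDs, 24375 matched a RefSeq symbol, and at most 2.17% of a library's counts had no symbol.

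One edgeR 4.0.16 model (R 4.3.3; TMM scaling, filterByExpr, robust quasi-likelihood F-test) was fitted to the 16 libraries, with Benjamini-Hochberg adjustment over 12534 genes and a threshold of 0.05. The SE is the absolute log2 value over the square root of F. CPM uses TMM-scaled totals and is not divided by gene length, so levels are compared within a gene only. The 8 spleen monocyte libraries were left out because an earlier account of these data describes transcripts of other tissues in 3 of them, which was not examined here, and they were added back as an alternative. As alternatives, scaling by RLE or by upper quartile, no filter, a filter of 5 CPM in 3 libraries, DESeq2 1.42.0, all 24 in vivo libraries, a replicate block and leaving out each library were tried. Counts were also simulated for 12534 genes, with 1 mean per gene in all groups. Some genes were given a known extra change in MC38 macrophages. On such counts the test recovered 25.4%, 67.2% and 93.9% of genes changed 1.5-fold, 2-fold and 4-fold, and called 5 of 12334 unchanged genes. The simulated counts held no other difference between cell types or tumors, so these rates may not hold for the data. Every pair of replicates differed beyond sampling noise, measured as chi-square per gene. MC38 macrophage replicate 4 differed most from its group, at 44.2 to 67.5, beside 10.5 to 16.6 among the other libraries of that group. LLC macrophage replicate 2 differed by 24.0 to 39.5, beside 11.9 to 20.4 among the others.

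The members, gene lists and tests were chosen with earlier results of these data known. Genes named were H2-Eb1, the 12 largest differences per direction (at least 10 CPM in a group mean, called in every fit without 1 library), 8 genes per direction of opposite change, up to 5 members per list by smallest adjusted p, and the sort genes. Further list members were named after their values were seen. Near-identical genes (H2, Ly6, Klra, Ifit3 and Ifit3b) may share reads. Figures were drawn with matplotlib 3.10.9. A few list members are not reported here.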

Additional observations from a re-analysis of the deposited data

Results flagged for a closer look

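The test of the difference itself singled out 2649 genes with unequal changes and 280 with opposite changes. Genes listed next were named in part by the size or adjusted p of this difference, so the list is no separate support. For Ly6a the sort gate set the monocyte end of the difference. Among the 40 genes checked library by library below, the difference of changes (log2, MC38 minus LLC) was higher in Cmpk2 (1.84), Rsad2 (1.40), Ifit3 (1.34), Cxcl10 (1.39), C3 (1.91), Il10 (2.01), Gk (2.48), Siglece (2.47), Fgl2 (2.60), Fpr2 (2.38), Fpr1 (2.30), Klra17 (2.73), Cd177 (3.79), Idi1 (1.05), Sqle (0.80), Pkm (0.55), Slc2a3 (2.86), Bub1 (1.29), Cdk2 (0.81), Lpl (1.97) and Ptgs2 (1.61). It was lower in H2-Eb1 (-2.73), H2-Aa (-2.43), H2-Ab1 (-2.48), Cd74 (-2.0), Ciita (-2.38), H2-Ob (-2.58), C1qa (-1.92), C1qb (-1.72), C1qc (-1.69), Nes (-3.73), Pmp22 (-2.54), Ly6a (-3.03), Ccr2 (-1.41), Padi4 (-1.84), Mertk (-1.41), Klf2 (-1.31), Cxcl16 (-1.70), Tnfsf13 (-2.05) and Cbfa2t3 (-2.26).

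In 12 of 160 groups of 4 libraries, 1 library stood apart from the other 3 by more than Dixon's 95% criterion, where chance gives about 1 in 20 groups. These were H2-Ob in MC38 macrophage replicate 3 (4.36 CPM), Ifit3 in LLC monocyte replicate 2 (449 CPM), Cxcl10 in LLC monocyte replicate 2 (569 CPM), C1qa in MC38 macrophage replicate 2 (2599 CPM), C3 in LLC macrophage replicate 4 (149 CPM) and Siglece in LLC monocyte replicate 4 (28.7 CPM). The others were Klra17 in LLC macrophage replicate 3 (0.950 CPM), Ly6a in MC38 macrophage replicate 4 (602 CPM), Mertk in LLC macrophage replicate 3 (41.7 CPM), Sqle in MC38 macrophage replicate 1 (13.1 CPM), Lpl in MC38 monocyte replicate 1 (20.9 CPM) and Cbfa2t3 in MC38 monocyte replicate 2 (14.6 CPM).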

How the results depend on the processing

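Beside 2649 genes with unequal changes, the other settings gave 1916 (all 24 in vivo libraries) to 3298 (replicate block), and leaving out 1 library gave 2281 to 2964. Higher differences numbered 825 to 1472, or 966 to 1701 without 1 library, the last without LLC macrophage replicate 2. Lower ones numbered 1068 to 1890, or 1065 to 1420 without 1 library. Opposite changes numbered 212 to 364, or 227 to 290 without 1 library. The MC38 change was called for 6656 to 7827 genes (6929 to 7659 without 1 library) and the LLC change for 6870 to 8175 (7341 to 7980). Of 168 named genes, 146 were called, and 108 of these kept sign and call under all 23 alternatives. No called named gene changed sign, while some uncalled ones did, and the share of higher among called genes crossed 50% as given in the report. The cause of the changes in counts was not tested. Replicate numbers were not taken as pairs, since the labels do not say what they mark and not every pair correlated over 0.1: same-numbered monocytes and macrophages correlated at -0.0341 to 0.188, over 0.1 in 3 of 8 pairs, and 6 of 8 monocyte libraries were closest to their own number, a hint from the data and not from the design. At this depth, genes near 1 CPM rest on few counts. The simulation, drawn without other group differences, missed most 1.5-fold changes, so an uncalled gene is not read as an equal change.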

Other observations

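Cd79b, a chain of the B cell receptor complex, rose in MC38 only by the test, from 6.69 ± 0.671 to 28.5 ± 1.62 CPM, and went from 3.55 ± 0.869 to 3.63 ± 0.909 CPM in LLC (2.04 ± 0.24, edgeR adjusted p = 1.9e-06). Its partner Cd79a had group means of at most 0.159 CPM and Ms4a1, which encodes CD20, of at most 0.407 CPM. Cdh1, which encodes E-cadherin, rose in LLC from 45.6 ± 10.4 to 99.6 ± 23.1 CPM and went from 6.39 ± 0.842 to 6.17 ± 1.05 CPM in MC38 (-1.16 ± 0.26, edgeR adjusted p = 0.00455). Its call ended with the spleen libraries in the fit (difference -1.169, edgeR adjusted p = 0.0567, the highest over the alternatives, with 2.13e-07 the lowest). Cdh1 led the epithelium and tumor cell list, of which 1 of 5 tested had a lower difference and 0 a higher one (12.2% and 8.98% over all genes). The list summed to 41.3 to 65.4 CPM in LLC monocytes, 89.1 to 138.8 in LLC macrophages, 6.9 to 8.9 in MC38 monocytes and 6.5 to 8.6 in MC38 macrophages. The part of tumor cells in the Cdh1 result was not tested. Lcn2, a siderophore binding protein of neutrophils and activated macrophages, had a difference of 3.1 ± 0.67, edgeR adjusted p = 0.00189, whose edgeR adjusted p ranged from 1.02e-05 to 0.189 over the alternatives.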
